A study of Mus musculus with 4 samples.

Results

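The genes described here are 10 effector and marker genes of mouse embryonic stem (ES) cells, Dppa2, Dppa3, Dppa4, Dppa5a, Utf1, Tdgf1, Sall4, Dnmt3b, Dnmt3l and Gdf3. They were picked by name, with earlier results of these data known, and are 10 of 22359 protein-coding genes of the GENCODE annotation (version M1, genome build mm9). The study asked where acetylation of lysine 9 (H3K9ac) and lysine 14 (H3K14ac) of histone H3 lies in the genome of untreated ES cells, and mapped both by ChIP-seq, in which DNA bound to the modified histone is precipitated with an antibody and sequenced. The labels give the E14 line, of strain 129P2/OlaHsd, at passages 25 to 30, whereas the methods speak of wild type cells derived from blastocysts, grown on feeder cells and then passaged without feeders on gelatin. There is 1 library for H3K9ac (a rabbit polyclonal antibody), 1 for each of 2 antibodies against H3K14ac (13HH3 and 7G8), and 1 of input DNA that was not precipitated. Every library comes from the same cell type and treatment, so the comparisons are between antibodies and with input. There are no replicates, and no p-value was computed. All intervals are exact 95% intervals, which cover the counting error of the reads and not the spread between cultures or precipitations.

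Acetylation of histone H3 neutralises the charge of the lysine and marks active promoters and enhancers. H3K9 and H3K14 are acetylated by shared enzymes, among them Gcn5 and Pcaf. The 10 genes are widely used as markers of the pluripotent state, but most of them encode proteins that act downstream of the core transcription factors Oct4, Sox2 and Nanog. Dppa2 and Dppa4 are chromatin proteins with a SAP domain that bind each other, Dppa3 protects DNA methylation in the early embryo, and Dppa5a has a KH domain of the kind that binds RNA. Utf1 is a chromatin-bound transcriptional coactivator, and Sall4 is a zinc finger transcription factor. Tdgf1 (Cripto) is a co-receptor for Nodal, and Gdf3 is a ligand of the TGF-beta family. Dnmt3b is a de novo DNA methyltransferase, and Dnmt3l is its relative without catalytic activity, which stimulates it.

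The libraries hold 19313142 to 23837354 tags (mapped reads, 1 kept per position and strand). Levels are given as tag density, which is tags per 10000000 tags of the library in the 4 kb window from 2 kb upstream to 2 kb downstream of the transcription start site (TSS). The markers of ES cells fixed for this purpose (Pou5f1, Sox2, Nanog and Zfp42) all had at least 2-fold more H3K9ac than input. Among 6 genes of feeder fibroblasts 1 reached this level, Col1a1, with a log2 ratio of 1.01, and their median was 0.02. Among 6 genes of other tissues none did. Of the markers of the other early lineages, 4 of 4 for primitive endoderm and 3 of 4 for trophoblast reached it for H3K9ac, with medians of 1.46 and 1.62. With 13HH3 the counts were 3 and 0, and with 7G8 they were 0 and 0. Of the 4 ES cell markers, 2 reached it with 13HH3 and 2 with 7G8. Of all TSSs tested, 57.3% reached it for H3K9ac, 16.6% with 13HH3 and 16.8% with 7G8. RNA was not measured here, so nothing below speaks of expression.

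H3K9ac lay on all 10 genes, and H3K14ac on some of them. Within 2 kb of the TSS, H3K9ac was at least 2-fold over input at 10 of 10 members, where 57.3% of all TSSs tested were. The members' median log2 ratio was 2.69, a 6.46-fold excess over input, against 1.31 for all TSSs. The lowest was 1.04 at Dppa3 and the highest 3.91 at Tdgf1. For H3K14ac, 5 of 10 members were at least 2-fold over input with 13HH3, against 16.6% of all TSSs, and 5 of 10 with 7G8, against 16.8%. Scaled by bins outside peaks, the share of all TSSs was 25.3% with 13HH3 and 20.3% with 7G8, and the members' counts were still 5 and 5. They were the same 5 genes with both antibodies, Dppa2, Dppa5a, Tdgf1, Sall4 and Gdf3. Both ratios divide by the same input tags at each gene, so the calls of the 2 antibodies are not independent. Dppa2 was called on 45 tags of 13HH3 against 19 of input, and Dnmt3l was not on 102 against 64. The sets part with another window or start. Sall4 is below 2-fold with 13HH3 within 1 kb (0.96), within 5 kb (0.90) and at the 5′ end of the gene (0.80), Dppa5a with 7G8 within 1 kb (0.99) and Gdf3 with 7G8 within 5 kb (0.98). The members' medians were 0.88 for 13HH3 and 0.91 for 7G8, and those of all TSSs were 0.35 for each. Counted by an interval above 0, the numbers were 10, 7 and 6 members for H3K9ac, 13HH3 and 7G8, against 66.1%, 33.8% and 32.8% of all TSSs.

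**Figure D1:**
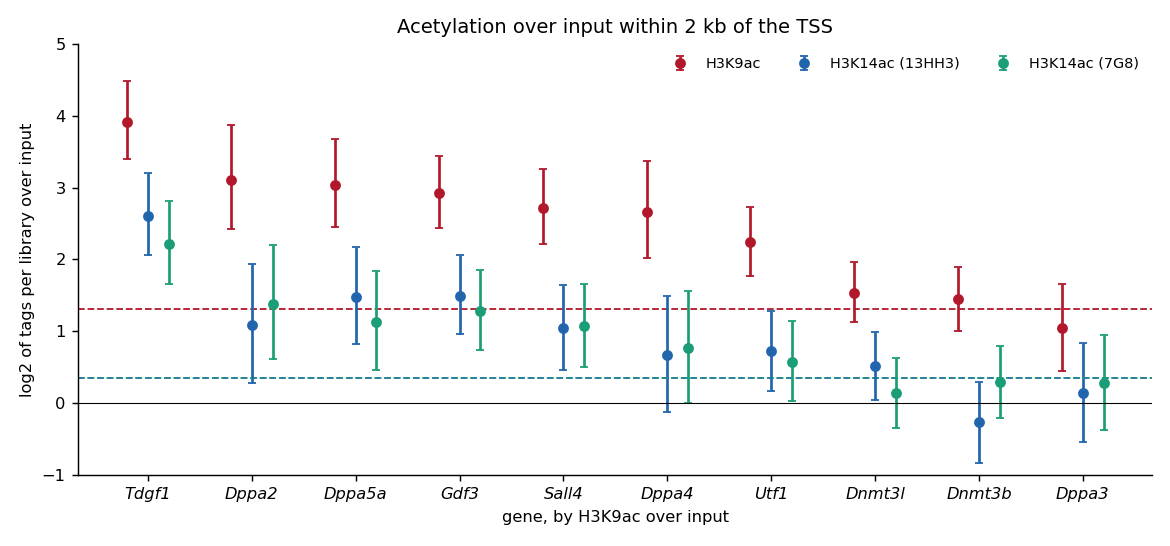
Log2 of tags per library over input within 2 kb of the TSS (vertical axis) for the 10 genes, ordered by H3K9ac, with exact 95% counting intervals as bars. Dashed lines mark the medians of all TSSs (1.31 for H3K9ac, 0.35 for both H3K14ac antibodies); Tdgf1 is highest in each library, from 3.91 to 2.22, and Dppa3 is lowest for H3K9ac at 1.04.

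Peaks of local enrichment gave a narrower set for H3K14ac. A peak is a run of 400 bp windows whose tags exceed the local Poisson rate at a probability of 1e-05. All 10 members had an H3K9ac peak within 2 kb of the TSS (65.1% of all TSSs). Peaks of 13HH3 were found at 4 members (28.2% of all TSSs) and peaks of 7G8 at 4 (25.1%), and they were the same 4 genes, Dppa5a, Tdgf1, Sall4 and Gdf3. The local rate was set with the same input for both antibodies, so these sets are not independent either. Of all TSSs 14.7% had peaks in all 3 libraries. The 6 members with an H3K9ac peak and no H3K14ac peak were Dppa2, Dppa3, Dppa4, Utf1, Dnmt3b and Dnmt3l. Of these, 5 had a 13HH3 peak farther out, within 20 kb of the TSS, and all 6 had a 7G8 peak there. These peaks are not all separate, since the distal 13HH3 peaks of Dppa3 are those on Gdf3 and its start, and some peaks between Dppa4 and Dppa2 were counted for both. Among all TSSs with an H3K9ac peak and none of the H3K14ac antibody, 55.8% had such a distal peak for 13HH3 and 38.4% for 7G8. At a stricter probability of 1e-10, peaks at the TSS remained at 9 members for H3K9ac, 2 for 13HH3 and 3 for 7G8. The shares of all TSSs were then 56.0%, 8.48% and 5.96%, and the sets of the H3K14ac antibodies were no longer the same.

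Most of these genes have fewer CpG dinucleotides around the TSS than the median TSS. CpG dinucleotides in the 1 kb around the TSS numbered 102 at Dnmt3b, 70 at Utf1 and 64 at Sall4, and 15 to 31 at the other 7 members, where the median of all TSSs was 41. Among all TSSs below that median 23.5% had at least 2-fold more H3K9ac than input, with a median log2 ratio of 0.09. The 7 members below it all did, with a median of 2.92. The 3 members above it had a median of 2.24, against 2.04 for all such TSSs. Of all TSSs 28.1% have fewer CpGs than the lowest of the 7 members, Dnmt3l, and 43.2% fewer than the highest, Tdgf1. The TSSs below the median thus include many with fewer CpGs than any member, and no share was computed at matched CpG counts. For H3K14ac, 4 of the 7 members with CpGs below the median (Dppa2, Dppa5a, Tdgf1 and Gdf3) were at least 2-fold over input with each antibody. Among all TSSs below the median 6.42% were with 13HH3 and 6.29% with 7G8, under the same limit.

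The promoters of 3 members are printed, as the 250 bases upstream of the TSS on the gene's strand, read from the mm9 genome: that of Tdgf1, which had the most H3K9ac over input, that of Dppa3, which had the least, and that of Dppa2, which had the most among members with an H3K9ac peak and no H3K14ac peak at the TSS. Capitals mark the searched motifs that were found.
Tdgf1, chr9:110848663-110848912, minus strand: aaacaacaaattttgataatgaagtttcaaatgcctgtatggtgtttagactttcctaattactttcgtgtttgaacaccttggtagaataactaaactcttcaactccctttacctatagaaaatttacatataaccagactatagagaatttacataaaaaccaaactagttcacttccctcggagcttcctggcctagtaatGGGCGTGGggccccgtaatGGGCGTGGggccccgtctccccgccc
Dppa3, chr6:122576178-122576427, plus strand: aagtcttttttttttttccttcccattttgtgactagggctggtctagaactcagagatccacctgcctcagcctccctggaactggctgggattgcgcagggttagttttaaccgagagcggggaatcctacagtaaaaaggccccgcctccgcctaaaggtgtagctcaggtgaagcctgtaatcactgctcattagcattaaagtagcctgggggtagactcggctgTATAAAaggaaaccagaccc
Dppa2, chr16:48310340-48310589, plus strand: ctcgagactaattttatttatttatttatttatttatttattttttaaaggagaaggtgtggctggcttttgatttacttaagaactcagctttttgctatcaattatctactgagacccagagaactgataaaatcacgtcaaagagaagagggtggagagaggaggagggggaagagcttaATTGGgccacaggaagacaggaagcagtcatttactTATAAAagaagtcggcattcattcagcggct
The capitals in Tdgf1 are 2 copies of GGGNGTGG, the core bound by Klf factors, which began at positions -45 and -26, counted with the TSS at 0. In Dppa3 and Dppa2 they are the TATA box TATAAA, which began at -20 and -31, and in Dppa2 also the reverse complement of CCAAT at -67.

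Motifs were searched on both strands from 250 bases before to 50 after the TSS of every gene. TATAAA was found at 2 members, Dppa2 and Dppa3, and in 13.4% of all promoters. CCAAT was found at 4 members, Dppa2, Dppa3, Dppa5a and Sall4 (37.6% of promoters). GGGNGTGG was found at 3, Dppa5a, Tdgf1 and Dnmt3b (18.9%), with 4 matches in Dppa5a, of which 3 overlap by their ends. NAAGGTCA, the Esrrb motif, was found at Dppa5a alone (3.85%). The octamer ATGCAAAT (1.72%), the Oct4-Sox2 composite motif (0.0939%) and the E-box CACGTG (7.75%) were found at no member within this window.

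**Figure D2:**
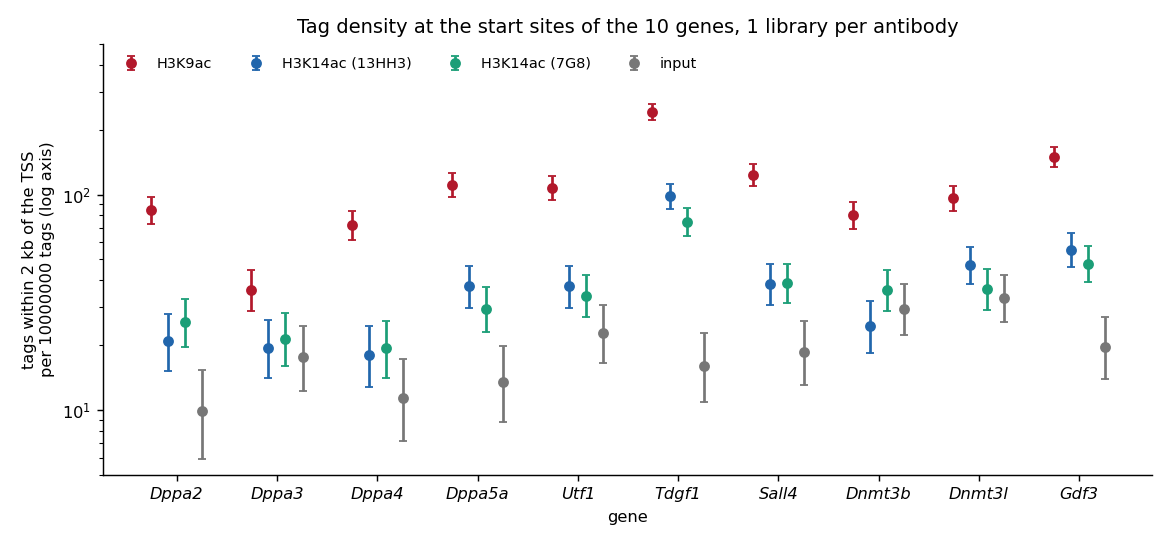
Tags within 2 kb of the TSS per 10000000 tags of the library (vertical log axis) for each gene, in the 4 libraries, with exact 95% Poisson intervals. H3K9ac lies above input at each gene, from 36.2 against 17.6 at Dppa3 to 242 against 16.1 at Tdgf1, and the H3K14ac libraries lie closer to input than H3K9ac at each gene.

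Dppa2 and Dppa4 lie side by side on chromosome 16, in the same orientation, with their TSSs 26742 bp apart. The window of Dppa2 (chr16:48308590-48312589) had a tag density of 84.6 for H3K9ac, 20.8 for 13HH3, 25.6 for 7G8 and 9.84 for input. Of all TSSs, 76.9% had fewer tags of H3K9ac than Dppa2, 36.2% fewer of 13HH3, 53.7% fewer of 7G8 and 11.8% fewer of input. Input was thus low at Dppa2, and its ratios below rest on 19 input tags. The window of Dppa4 (chr16:48281848-48285847) had 72.0 for H3K9ac, 18.0 for 13HH3, 19.3 for 7G8 and 11.4 for input. H3K9ac was thus well clear of input at both genes, with log2 ratios of 3.10 (2.42 to 3.87) and 2.66 (2.01 to 3.37). H3K14ac over input was 1.08 (0.28 to 1.94) with 13HH3 and 1.38 (0.62 to 2.21) with 7G8 at Dppa2. At Dppa4 it was 0.66 (-0.13 to 1.49) and 0.76 (0.00 to 1.56), so neither interval was clearly above 0 in this window. Within 1 kb of the TSS of Dppa4 it was 1.57 (0.21 to 3.18) and 1.63 (0.30 to 3.22), on 20 and 23 tags against 6 of input. Both were above 0 and past 2-fold, as were 27.8% and 26.2% of all TSSs past 2-fold within 1 kb. Of the 36-base sequences in the 4 kb windows of Dppa2 and Dppa4 89.7% and 86.9% are unique in the genome, so part of the windows could not receive unique tags in any library.

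The most H3K14ac tags per bin in this locus lay between the genes, whereas the ratios to input there and at the start of Dppa2 overlapped. The 1 kb bin 8 to 7 kb upstream of the TSS of Dppa2 held 40 tags of 13HH3 and 42 of 7G8, against 11 of input. The 1 kb just downstream of the TSS of Dppa2 held 17 and 16, against 4 of input. The log2 ratios were 1.70 and 1.63 in the upstream bin and 1.92 and 1.70 in the one after the TSS, so that tags and input differed together. In the bin 7 to 6 kb upstream they were 1.30 and 2.02, on 22 and 40 tags against 8 of input. In the 1 kb before the TSS they were 2.30 and 2.50, on 11 and 14 tags against 2 of input. In the library of 13HH3 3 peaks lay between positions -7889 and -5440 from the TSS of Dppa2, the widest at chr16:48302701-48303550. In that of 7G8 the widest peak was at chr16:48302901-48304400. H3K9ac was also high in this stretch, with 85 tags in the bin 7 to 6 kb upstream of Dppa2, against 8 of input. The bin that begins at the TSS held fewer, 67, but against 4 of input. The ratio of H3K9ac to input was thus lower in the upstream bin than in the bin at the TSS. Both ratios rest on few input tags. From the start of Dppa4 to the end of Dppa2 (chr16:48283848-48319836), 31 of 36 bins were called for H3K9ac, 13 for 13HH3 and 12 for 7G8, which means at least 2-fold over input with at least 10 tags. Of the bins within 20 kb of all TSSs 22.6%, 10.7% and 10% were called. Over the whole interval the log2 ratio to input was 2.10 (1.88 to 2.33) for H3K9ac and 0.85 for each H3K14ac antibody (0.60 to 1.10 and 0.61 to 1.10).

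Dppa3 had the least H3K9ac of the 10 genes. Its window (chr6:122574428-122578427) had a tag density of 36.2 for H3K9ac, 19.4 for 13HH3, 21.4 for 7G8 and 17.6 for input. The log2 ratio of H3K9ac was 1.04 (0.45 to 1.66), just inside the 2-fold limit and below the median of all TSSs. Those of 13HH3 (0.14, -0.55 to 0.84) and 7G8 (0.28, -0.37 to 0.95) were not distinguishable from input at this depth. What H3K9ac there was lay downstream of the TSS. The 2 kb upstream held 17 tags against 13 of input, and the 2 kb downstream 67 against 21. The 4 small H3K9ac peaks of this window were 450 to 950 bp wide and stood between 23 and 2922 bp downstream of the TSS, within the 3863 bp gene. When the window was extended to 5 kb, Dppa3 was the member that fell below 2-fold.

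Dppa3 lies between 2 genes with more H3K9ac. The TSS of Gdf3 is 16323 bp away on the opposite strand, and Nanog, the homeobox factor of the core network, lies on the other side. In the interval from Gdf3 to the end of Nanog (chr6:122555421-122664651) 58 of 110 bins were called for H3K9ac and 22 for each H3K14ac antibody, against 22.6%, 10.7% and 10% of the bins within 20 kb of all TSSs for H3K9ac, 13HH3 and 7G8. Counted in 1 kb bins from the left end of the interval, the highest H3K9ac bins were at Gdf3 (134 and 125 tags) and about 5 kb before Nanog (146 tags, against 16 of input). A further bin with 88 tags stood in the middle, between Dppa3 and Nanog, with 41 tags of 13HH3 and 32 of 7G8 against 14 of input. Within 20 kb of Dppa3, the highest bin in each of the 3 libraries was that at the start of Gdf3. Nanog itself, with a log2 ratio of 1.96 for H3K9ac, 0.31 for 13HH3 and 0.57 for 7G8, lay between Dppa3 and Gdf3 for H3K9ac.

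**Figure D3:**
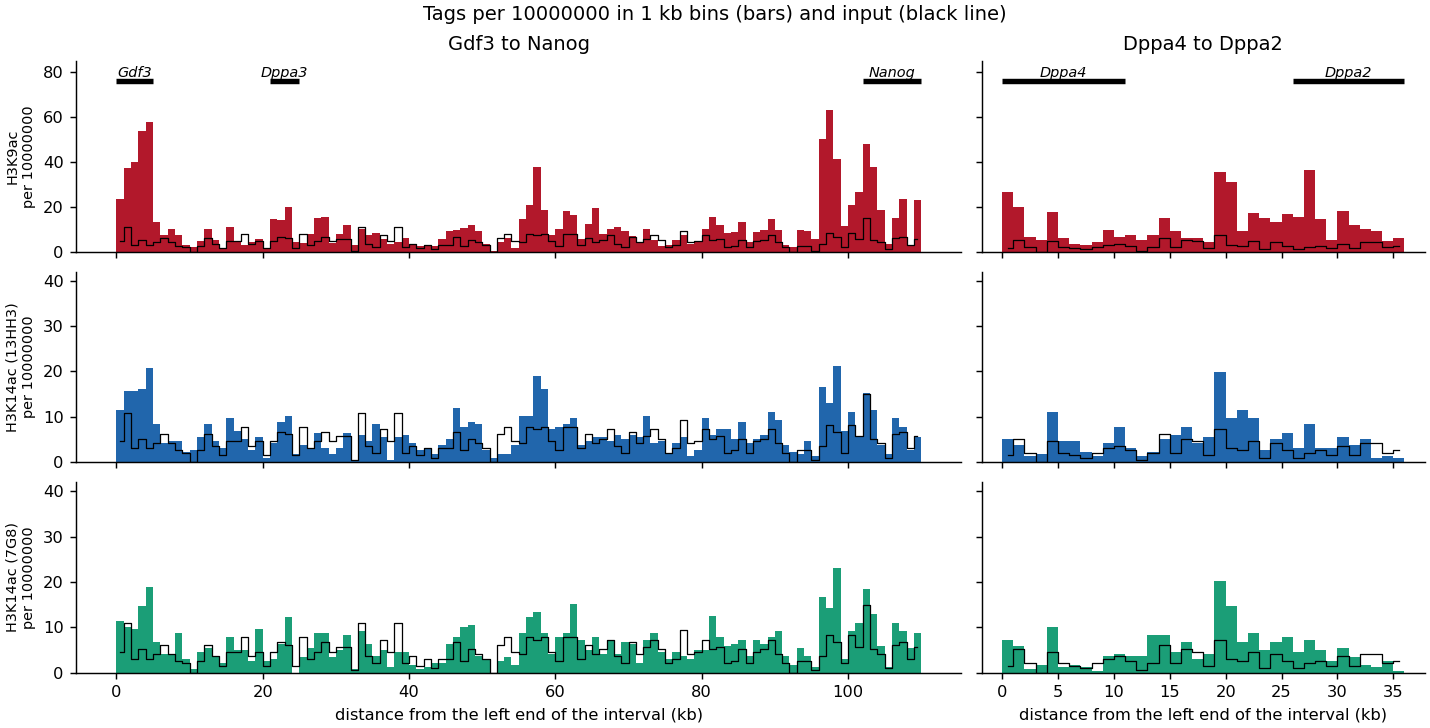
Tags per 10000000 tags in 1 kb bins (bars) along the intervals from Gdf3 to Nanog and from Dppa4 to Dppa2, with input as the black line and genes as thick lines above; the vertical axis is higher for H3K9ac. The densest bins are at Gdf3 and shortly before Nanog, with Dppa3 low between them, and the densest H3K14ac bin of the other interval is between Dppa4 and Dppa2.

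Gdf3, the TGF-beta family ligand, was among the most acetylated members. Its window (chr6:122558106-122562105) had a tag density of 149 for H3K9ac, 55.5 for 13HH3, 47.8 for 7G8 and 19.7 for input. All 3 precipitated libraries were clear of input, with log2 ratios of 2.92 (2.44 to 3.45), 1.50 (0.96 to 2.06) and 1.28 (0.74 to 1.85). The tags were mostly inside the gene. H3K9ac counted 63 tags in the 2 kb upstream and 283 in the 2 kb downstream, where input counted 20 and 18. A single H3K9ac peak of 5500 bp (chr6:122555401-122560900) covered the whole gene of 4685 bp. The 13HH3 peak of 1850 bp and the 7G8 peak of 950 bp at the start lay within it. Over the gene body the log2 ratio was 2.94 for H3K9ac, 1.48 for 13HH3 and 1.17 for 7G8, the last being the only gene body among the members at least 2-fold over input with 7G8.

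Tdgf1, the co-receptor of Nodal, had the highest ratio to input in each of the 3 precipitated libraries. Its window (chr9:110846663-110850662) had a tag density of 242 for H3K9ac, 98.0 for 13HH3, 74.7 for 7G8 and 16.1 for input. Input at Tdgf1 was below that of 6 other members. The log2 ratios over input were 3.91 (3.39 to 4.49) for H3K9ac, 2.61 (2.06 to 3.20) for 13HH3 and 2.22 (1.66 to 2.82) for 7G8. Among all TSSs tested these stood at the percentiles 99.3, 99.7 and 99.6. Unlike at Gdf3, H3K9ac lay on both sides of the TSS, with 308 tags upstream and 253 downstream in 2 kb each. The H3K9ac peak at the TSS was 12750 bp wide (chr9:110845251-110858000), from position -9338 to 3411 relative to the TSS. The bin 6 to 5 kb upstream held 167 tags of H3K9ac, 69 of 13HH3 and 63 of 7G8 against 20 of input. The 1 kb just before the TSS held about as many of H3K9ac, 164, with 73 of 13HH3 and 44 of 7G8, against 4 of input. The log2 ratio of H3K9ac was 2.80 in the upstream bin and 5.09 in the one before the TSS. The start of the divergent gene Lrrc2 lies 5387 bp upstream of the TSS, in the bin 6 to 5 kb upstream, so tags there cannot be assigned to either gene. In the 2 kb downstream of the TSS, away from Lrrc2, the log2 ratio of H3K9ac was 3.72 (2.99 to 4.55).

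Dppa5a is a small gene of 1126 bp in a long acetylated stretch. Its window (chr9:78213985-78217984) had a tag density of 111 for H3K9ac, 37.5 for 13HH3, 29.4 for 7G8 and 13.5 for input. The log2 ratios were 3.04 (2.46 to 3.68), 1.48 (0.82 to 2.17) and 1.13 (0.46 to 1.83), all above 0. Only 60.9% of the 36-base sequences of this window are unique, and 23.0% of those in the 1 kb that holds the gene, so many tags of this stretch could not be placed at a single position. The limit applies to input as to the other libraries. The bins called for H3K9ac ran without a gap over 21 kb, from 12 kb upstream to 9 kb downstream, the longest run among the members. The tallest H3K9ac bin, 7 to 6 kb upstream, held 123 tags against 14 of input. The 3 widest peaks of 13HH3 stood at -4866 to -3917, at -6466 to -5317 and at -10566 to -9267 from the TSS, and a peak of 7G8 overlapped each. The last is at the start of Ooep, a gene of the KH-domain family whose TSS is 10548 bp upstream. Ooep had log2 ratios of 2.53 for H3K9ac, 1.67 for 13HH3 and 0.92 for 7G8 at its own TSS.

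Utf1 had H3K9ac on both sides of its start, with the highest bin just after it. Its window (chr7:147127755-147131754) had a tag density of 107 for H3K9ac, 37.5 for 13HH3, 34.0 for 7G8 and 22.8 for input. The log2 ratio of H3K9ac was 2.24 (1.77 to 2.73). Those of H3K14ac were smaller, 0.72 (0.17 to 1.28) with 13HH3 and 0.58 (0.03 to 1.14) with 7G8, above 0 but short of 2-fold. H3K9ac stepped up at the TSS, from 19 tags in the 1 kb before it to 127 in the 1 kb after it, while input had 7 and 16. A peak of 3050 bp covered the gene of 1324 bp and its 3' flank. H3K9ac bins were called without a gap over 17 kb, from 8 kb upstream to 9 kb downstream, and further H3K9ac peaks stood at -7604 to -4955 and at -4354 to -2355. The bin 7 to 6 kb upstream held 45 tags of 7G8 against 17 of input, where the bin that begins at the TSS held 24 against 16. With 13HH3 these bins held 33 and 32 tags, and neither was called. The 7G8 library had peaks at -6754 to -6105 and at 6396 to 7045 from the TSS, the latter at the start of the lincRNA Gm16201.

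Sall4 had broad H3K9ac, and the 2 antibodies against H3K14ac differed there by side. Its window (chr2:168590702-168594701) had a tag density of 123 for H3K9ac, 38.4 for 13HH3, 39.0 for 7G8 and 18.6 for input. The log2 ratios over input were 2.72 (2.22 to 3.26), 1.04 (0.46 to 1.65) and 1.07 (0.50 to 1.66). The H3K9ac peak was 9450 bp wide (chr2:168586151-168595600) and reached 6550 bp into the gene. Its highest bin was 4 to 5 kb downstream of the TSS, with 131 tags against 11 of input. In the 2 kb upstream of the TSS 13HH3 counted 28 tags and 7G8 63, a log2 ratio of -1.03 (-1.73 to -0.37). In the 2 kb downstream they counted 55 and 30, a ratio of 1.01 (0.35 to 1.71). Over the whole window these opposite differences cancelled, with a ratio of -0.02 (-0.47 to 0.42). Another transcript of Sall4, without coding sequence, starts at -742, and the lincRNA Gm14261 starts 1058 bp downstream on the other strand.

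**Figure D4:**
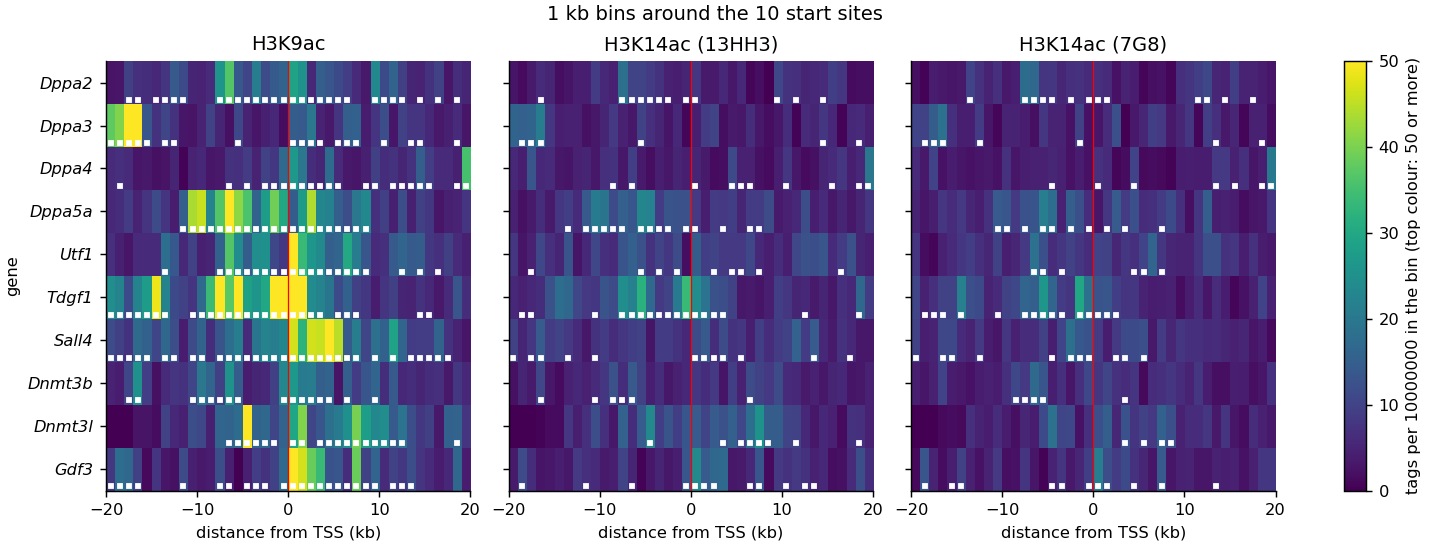
Tags per 10000000 tags in 1 kb bins from 20 kb upstream (left) to 20 kb downstream of each TSS (red line), for the 3 precipitated libraries; white squares mark bins at least 2-fold over input with at least 10 tags. H3K9ac fills runs of up to 21 kb (Dppa5a), and the dense bins of Dppa3 at the far left are those of Gdf3.

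Dnmt3b had H3K9ac at its start and no detectable H3K14ac there. Its window (chr2:153473190-153477189) had a tag density of 80.2 for H3K9ac, 24.5 for 13HH3, 36.1 for 7G8 and 29.5 for input. The log2 ratio of H3K9ac was 1.44 (1.01 to 1.90), near the median of all TSSs. The ratio of 13HH3 was -0.27 (-0.84 to 0.30), the lowest among the members, and that of 7G8 was 0.29 (-0.21 to 0.80). Input was higher here than at 89.0% of TSSs, and the 1 kb around the TSS had 102 CpGs and a GC content of 70.5%. Upstream of the promoter the picture differed. The bin 7 to 6 kb upstream held 59 tags of H3K9ac, 30 of 13HH3 and 41 of 7G8 against 7 of input, and was the densest of the locus for both H3K14ac antibodies. The antisense transcript 7530422B04Rik starts 832 bp downstream of the TSS. Along the body of 38281 bp H3K9ac had a ratio of 0.59 (0.42 to 0.76), the only member body below 2-fold.

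Dnmt3l had H3K9ac at its start, and H3K14ac of at least 2-fold over input at an internal start site. At the TSS of its longest coding sequence (chr10:77503032-77507031) the window had a tag density of 96.2 for H3K9ac, 47.2 for 13HH3, 36.5 for 7G8 and 33.1 for input. The log2 ratios were 1.54 (1.13 to 1.96), 0.51 (0.04 to 0.98) and 0.14 (-0.34 to 0.63), and Aire starts 1323 bp downstream on the other strand. H3K9ac in this window lay towards the side of Aire, with 61 tags upstream of the TSS and 162 downstream. The bin with the most tags of H3K9ac and 7G8 within 20 kb was 5 to 4 kb upstream, with 143 and 45 against 20 of input. It also held 51 of 13HH3. Its log2 ratios to input were 2.57 for H3K9ac, 1.19 for 13HH3 and 0.87 for 7G8, so it was not called for 7G8. In the bin 5 to 6 kb downstream the ratios were higher, 3.32, 2.36 and 2.22, against 4 tags of input. Another start site of Dnmt3l is annotated 7555 bp downstream, at position 77512587, and was singled out after its values were seen. Within 2 kb of it H3K9ac counted 253 tags, 13HH3 147 and 7G8 98, against 34 of input. The log2 ratios there were 2.63 (2.11 to 3.19), 1.95 (1.40 to 2.53) and 1.22 (0.65 to 1.83), so that the site was at least 2-fold over input in every library. Peaks of all 3 libraries lay at this site, the 13HH3 peak being 2000 bp wide (chr10:77511551-77513550). The site was taken as the most acetylated of the gene's annotated starts, a choice given to no other gene, so nothing is read from its rank among TSSs or from counts that include it.

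H3K14ac was low relative to H3K9ac at these genes. The members' median log2 ratio of 13HH3 to H3K9ac was -1.54, against -0.92 for all TSSs, and that of 7G8 to H3K9ac was -1.66, against -1.07. With each antibody 9 of 10 members were at least 2-fold below H3K9ac, against 47.4% of TSSs for 13HH3 and 52.9% for 7G8. The exception was Dppa3 in both cases, with -0.90 (-1.47 to -0.35) and -0.76 (-1.29 to -0.24). It had the least H3K9ac of the members. Scaling by bins outside peaks shifts these ratios by -0.29 and -0.41, which takes Dppa3 past 2-fold too. It also takes the medians of all TSSs to -1.21 and -1.48, so most TSSs are then past 2-fold as well. The shares above belong to the ratios without this scaling. The background includes TSSs with little H3K9ac, and no share was computed for TSSs matched for H3K9ac. At 10 germline genes, whose median for H3K9ac over input was 0.37, the medians were -0.20 and -0.82. Other genes of ES cells had medians in a similar range to the members. They were -1.20 and -1.56 at 12 core pluripotency factors and -1.38 and -1.55 at 14 other genes of ES cells. At the 4 ES cell markers, which are among the 12 core factors, they were -1.59 and -1.97. The whole interval was below the median of all TSSs for 8 members with 13HH3 and for 7 with 7G8, as it was for 33.4% and 26.9% of TSSs. Dppa2 and Dppa4 were lowest with 13HH3, at -2.02 (-2.52 to -1.55) and -2.00 (-2.54 to -1.49). Dppa5a and Dppa4 were lowest with 7G8, at -1.92 (-2.32 to -1.53) and -1.90 (-2.40 to -1.42). These ratios share the H3K9ac tags, and tags per library do not measure the absolute amount of a mark, since the antibodies differ in efficiency.

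**Figure D5:**
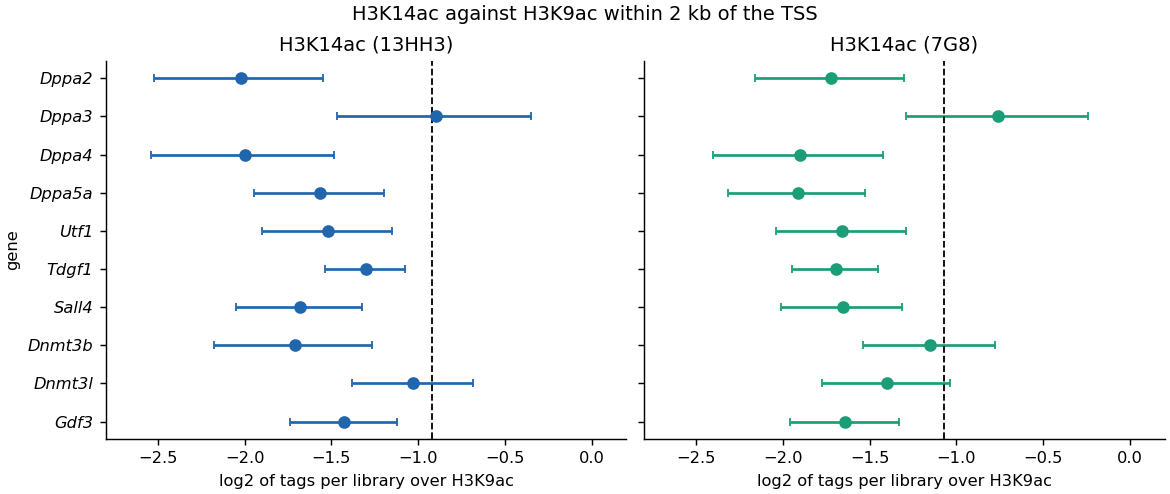
Log2 of tags per library of each H3K14ac antibody over H3K9ac within 2 kb of the TSS (horizontal axis) for each gene, with exact 95% counting intervals. The dashed line is the median of all TSSs, -0.92 for 13HH3 and -1.07 for 7G8; with each antibody 9 of 10 genes lie to its left, all but Dppa3.

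The 2 antibodies against H3K14ac were set against each other directly. Over the 4 kb window the interval of their ratio was clear of 0 at 2 members, a share close to the 19.7% of all TSSs. 13HH3 was higher at Tdgf1, with a log2 ratio of 0.39 (0.10 to 0.69), and 7G8 was higher at Dnmt3b, with -0.56 (-1.08 to -0.05). With upstream and downstream 2 kb taken apart, 5 of 20 intervals were clear of 0, against 14.9% of those around all TSSs. Besides both sides of Sall4, these were the downstream side of Tdgf1 (0.72, 0.24 to 1.20) and the upstream sides of Dnmt3l (1.30, 0.54 to 2.09) and Dnmt3b (-0.79, -1.61 to -0.02). The intervals are not adjusted for their number, and with 1 library per antibody a difference between antibodies cannot be told apart from one between libraries.

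H3K9ac also lay farther than 2 kb from the TSSs of these genes. The widest H3K9ac peak within 2 kb of the TSS was at least 5 kb wide at 3 members (Tdgf1, Sall4 and Gdf3), as at 3.2% of TSSs with a peak. The members' median of this widest peak was 3600 bp, against 1750 bp for all, and the narrowest was Dppa3 with 950 bp. In the 40 bins around each TSS, 228 of 400 bins of the members were called for H3K9ac, 107 for 13HH3 and 89 for 7G8, where 22.6%, 10.7% and 10% of the bins around all TSSs were. From 2 to 20 kb from the TSS 53.6% of the members' 1 kb bins were called for H3K9ac, against 19.9% around all TSSs. The shares were 25.6% against 9.73% for 13HH3 and 20.3% against 8.88% for 7G8. The windows of Gdf3 and Dppa3 share 23.7 kb and those of Dppa4 and Dppa2 13.3 kb, so some bins were counted for 2 members. The distal bins also hold starts of other genes, such as Lrrc2 near Tdgf1, Ooep near Dppa5a, Commd7 near Dnmt3b and Apobec1 near Gdf3. Tags there cannot be assigned to the member. Within 2 kb the shares were 87.5% against 47.1% for H3K9ac, 37.5% against 19.5% for 13HH3 and 40% against 20.5% for 7G8. For H3K9ac the number of called bins ran from 16 of 40 at Dnmt3b to 32 of 40 at Sall4, and H3K14ac was called in at most 17, at Tdgf1 with 13HH3.

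Gene bodies were counted as well. Over the whole gene H3K9ac was at least 2-fold over input at 9 members (27.9% of genes tested), 13HH3 at 3 (4.64%), namely Dppa5a, Tdgf1 and Gdf3, and 7G8 at 1 (3.43%). The ratio of Dppa5a rests on 34 tags of H3K9ac and 18 of 13HH3 against 3 of input. Scaled by bins outside peaks, the members numbered 10, 4 and 2, and the shares of genes were 48.3%, 8.20% and 4.23%. Utf1 (1324 bp) and Dppa5a (1126 bp) lie wholly within the window around the TSS, and much of Dppa3 (3863 bp) and Gdf3 (4685 bp) does. Their body tags thus largely repeat those at the TSS, and the shares of all genes are not matched for length. Of the 8 members with a body long enough to be counted from 2 kb after the TSS, 7 had at least 2-fold more H3K9ac than input (15.4% of genes), which left out Dnmt3b. In that part 13HH3 was called at Gdf3 alone (1.8% of genes) and 7G8 at no member (1.14%).

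Related genes and the core network gave the frame for these values. Among 12 core pluripotency factors H3K9ac was called at 11, 13HH3 at 5 and 7G8 at 2, with median log2 ratios of 2.21, 0.89 and 0.73. Zfp42 (4.09) and Sox2 (3.47) had the most H3K9ac, and Esrrb (0.76) was the one not called. Among 14 other genes of ES cells the counts were 14, 6 and 6, with Mybl2 (3.59) and Jarid2 (3.71) highest for H3K9ac. Among 10 paralogs or family members of the genes described here they were 9, 4 and 1. Sall1 had ratios of 3.03, 1.73 and 1.48, against 2.72, 1.04 and 1.07 at Sall4. Dnmt1, the maintenance methyltransferase, had 2.82 for H3K9ac, and Dnmt3a had 0.91, against 1.44 at Dnmt3b. Among 10 germline genes the counts were 3, 2 and 0, with a median of 0.37 for H3K9ac. Peaks of 13HH3 within 2 kb of the TSS were not particular to the members, which had 4. They stood at 7 of the 12 core factors, 8 of the 14 other ES cell genes, 4 of the 10 paralogs and 5 of the 10 germline genes. With 7G8 these lists had 6, 7, 3 and 0, and the members 4. By distance in the 3 log2 ratios, the genes nearest to the members' median, out of the 46 genes in these lists, were Pou5f1 (2.49, 0.55 and 0.95), Fgf4 (2.43, 1.03 and 0.67) and Dnmt1 (2.82, 0.72 and 0.45).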

How the data were processed

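Per the study's methods, ELAND mapped the reads with 1 mismatch allowed. The authors deposited mapped reads of 36 bases in mm9 as chromosome, start, end and strand, 1 line each; these positions are not normalized, and the score column was not used. Other steps before deposit are not given in the sources used here. The files hold 23183487 (H3K9ac), 22365676 (13HH3), 23839094 (7G8) and 19313927 (input) tags. In that of 13HH3 738619 tags repeated a position and strand and were removed; the others held no repeats. Tag ends were checked against the chromosome lengths of the NCBIM37 genome: on 1 chromosome the input tags reached 1 base past the end. Tags were counted at a point 100 bp inward from their 5′ end, on chromosomes 1 to 19, X and Y, around the TSS of the protein-coding transcript with the longest coding sequence of each gene. A ratio is of tags per library, with an exact conditional binomial 95% interval. A call of a ratio needs 2-fold and 10 tags in both libraries together, and a call of a bin needs 2-fold and 10 tags of the precipitated library. Peaks used 400 bp windows in 50 bp steps, after the method of MACS, which was not run. A site at 0 tags would allow up to 3; none of the windows of the 10 genes was at 0. The depth sets the precision, and intervals cover counting error only.

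The members and gene lists were chosen with earlier results of these data known. Named are all members, genes with a TSS within 20 kb, Nanog, genes of the lists, the 3 listed genes nearest to the members' median, and printed promoters chosen by H3K9ac over input and by peaks. A promoter sequence and a gene of other tissues that these rules would name are not reported here. Alternatives were tried for repeats, the tag shift, scaling, windows, the TSS, the pseudocount, minimum tags and the peak threshold. The peak caller and intervals were tested on simulated data. Software was Python 3.11.15 (numpy 2.4.6, pandas 2.3.3, scipy 1.17.1, matplotlib 3.10.9).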

Additional observations from a re-analysis of the deposited data

How the results depend on the processing

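No paired analysis was possible because each antibody has 1 library and no groups share replicates. Of the counts over members, 87 values under alternatives stayed within 1.5 times the reported count and 6 did not. Of the values of single genes 372 stayed within their counting interval and 33 did not, and no called value changed direction. These tallies pool settings that could move little with others. Keeping repeats, no tag shift, the pseudocount and no minimum of tags each left all 50 values the same. Repeats occurred in the 13HH3 library alone. The 1 kb window moved 13 values and left 37, and scaling by bins outside peaks moved 11 and left 39. At a peak probability of 1e-10, 13HH3 peaks remained at 2 members instead of 4, Tdgf1 and Gdf3, while the share of all TSSs fell from 28.2% to 8.48%. Peaks of 7G8 remained at 3 members instead of 4, while the share fell from 25.1% to 5.96%. Peaks of H3K9ac remained at 9 members instead of 10, while the share fell from 65.1% to 56.0%. From 2 kb after the TSS, gene bodies at least 2-fold over input numbered 1 instead of 3 for 13HH3 and 0 instead of 1 for 7G8, over the 8 members with such a body. At 3-fold, 49 bins in place of 107 were called for 13HH3 and 35 in place of 89 for 7G8, where the shares of all bins were 3.95% in place of 10.7% and 3.68% in place of 10%. The bins and peaks met a stricter threshold by construction. The bodies were counted over another region, in which the log2 ratio of Gdf3 with 7G8 was 0.63 instead of 1.17 and that of Tdgf1 with 13HH3 0.69 instead of 1.34, and Dppa5a is too short to be counted. Over whole genes, scaling by bins outside peaks gave 2 for 7G8, since its shift brought Dppa5a from 0.92 to 1.01, on 7 tags against 3 of input. The share of all genes went from 3.43% to 4.23%. With it the share of gene bodies called rose from 27.9% to 48.3% for H3K9ac and from 4.64% to 8.20% for 13HH3, and the members numbered 10 instead of 9 and 4 instead of 3. Scaling the libraries by bins outside peaks, in place of all tags, moved the median of all TSSs by 0.50 for H3K9ac, 0.21 for 13HH3 and 0.09 for 7G8 over input, and by -0.29 and -0.41 for 13HH3 and 7G8 against H3K9ac. Each gene moves by the same amount, so the order of the genes did not change. The members at least 2-fold over input still numbered 10, 5 and 5, while the shares of all TSSs rose from 57.3% to 67.9%, from 16.6% to 25.3% and from 16.8% to 20.3%. Within 1 kb of the TSS Dppa4 joined the genes called with both H3K14ac antibodies, while Sall4 dropped out with 13HH3 and Dppa5a with 7G8, and the share of all TSSs was 27.8% and 26.2%. Within 5 kb, where it was 5.63% and 5.03%, Sall4 dropped out with 13HH3 and Gdf3 with 7G8, and at the 5′ end of the gene Sall4 dropped out with 13HH3 (0.80). With 1 library each, variation between precipitations is not measured, and small H3K14ac ratios at members with under 60 tags have wide intervals.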
